A study of Homo sapiens with 16 samples.

Results

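The 50 genes described here encode the DEAD and DEAH box RNA helicases of H9 cells, a human embryonic stem cell line. They were taken as every row of the deposited table whose symbol is DDX or DHX followed by a digit and that had a value in all 8 cultures, and are 50 of the 15864 genes with a value in every culture and of 28252 rows in all. Of 65 rows with such a symbol, 3 hyphenated antisense names, 7 pseudogene names and DDX3Y were left out by that rule. DDX4, DDX43, DDX53 and DDX60L lacked a value in at least 1 culture and were left out too.

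The cells were grown in feeder-free mTeSR1 medium, which all groups share, and were treated with an siRNA against OCT4 (POU5F1, a transcription factor of the pluripotent state) or with a control siRNA, at 1% or 20% oxygen. The 4 groups were siOCT4 at 1% oxygen, control siRNA at 1% oxygen, siOCT4 at 20% oxygen and control siRNA at 20% oxygen. Each group had 2 cultures, and each culture gave a library of total RNA and a library of RNA captured with ribosome-nascent chain complexes, 16 libraries in all. The single measure is the translation ratio, a gene's level in ribosome-bound RNA over its level in total RNA as the authors computed it, so that a higher ratio can come from more ribosome-bound RNA or from less total RNA. In these bulk samples a change in the makeup of the culture and a change within its cells cannot be told apart. H9 is 1 line, the labels name neither the siRNA sequence nor the hours of treatment, and separate growth of the replicates is not stated in them. The p-values therefore measure the spread between these samples only.

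DEAD and DEAH box proteins use ATP to open short RNA duplexes, to strip proteins from RNA or to clamp it. DEAD box proteins act locally, whereas DEAH box proteins travel along a strand and many are switched on by partner proteins that carry a G-patch. Their work covers splicing, mRNA export, ribosome assembly, translation initiation, mRNA decay and the sensing of viral RNA, and a dividing stem cell depends on many of them for ribosome production and splicing.

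The families are named after 4 amino acids in their second conserved motif, which binds the ATP-bound magnesium ion. In the GENCODE release 29 coding sequences, motif II read DEAD in 26 members, DEAH in 9, DEVH in 5, and DECD, DECH, DEIH and DEVD in 2 each, and the search found no match in 2 (DDX52 and DHX32). The stretches of 60 coding bases around it are shown because members with the same protein motif are written in different bases, and base composition is what the ratio of these genes followed in part of the study. Motif II is in capitals, 5′ to 3′ on the coding strand, all within coding exons. The first 4 come from genes with AT-rich codon ends on chromosomes X, 5, 1 and 3, the other 4 from genes with GC-rich codon ends on chromosomes 5, 12, 16 and 19.
DDX3X: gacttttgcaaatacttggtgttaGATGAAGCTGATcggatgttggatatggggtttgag
DDX46: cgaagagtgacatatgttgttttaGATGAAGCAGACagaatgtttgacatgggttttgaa
DHX9: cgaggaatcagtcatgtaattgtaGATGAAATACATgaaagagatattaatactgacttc
DHX36: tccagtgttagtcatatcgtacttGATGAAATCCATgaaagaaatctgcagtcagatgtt
DDX41: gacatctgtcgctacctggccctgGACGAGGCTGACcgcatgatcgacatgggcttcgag
DHX37: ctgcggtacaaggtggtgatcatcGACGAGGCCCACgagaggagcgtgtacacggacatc
DHX38: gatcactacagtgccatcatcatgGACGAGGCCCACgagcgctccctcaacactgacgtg
DDX39A: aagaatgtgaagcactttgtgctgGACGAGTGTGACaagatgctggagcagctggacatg

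DDX3X and DDX41 both encode the letters DEAD here. The third base of the codon was G or C in 40.5% of the codons of DDX3X and in 74.3% of those of DDX41. For the DEAH-type members the share was 38.6% in DHX9 and 34.5% in DHX36, against 76.5% in DHX37 and 70.3% in DHX38. DDX46 had 37.1% and DDX39A 77.8%. Transcript GC content, the measure used below, ran from 39.1% in DDX60 to 61.8% in DDX49.

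The ratios of the members separated widely in 2 of the 4 groups and lay close to 1 in the others. The median ratio of the 50 members was 2.13 and 1.91 in siOCT4 cells and 0.875 and 0.944 in control cells at 1% oxygen. It was 0.952 and 0.914 in siOCT4 cells and 1.47 and 1.31 in control cells at 20% oxygen. Over all 15864 genes the medians were 1.35 and 1.31 in siOCT4 cells and 1.02 and 1.02 in control cells at 1% oxygen, and 1.11 and 1.11 in siOCT4 cells and 1.14 and 1.20 in control cells at 20% oxygen. A ratio above 2 was reached by 25 members in each siOCT4 culture at 1% oxygen and by 18 in each control culture at 20% oxygen, and by 0 in the other 4 cultures. The 2 cultures of a group were close, with a median fold between them of 1.06 in siOCT4 cells and 1.14 in control cells at 1% oxygen, and of 1.04 in siOCT4 cells and 1.16 in control cells at 20% oxygen.

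**Figure D1:**
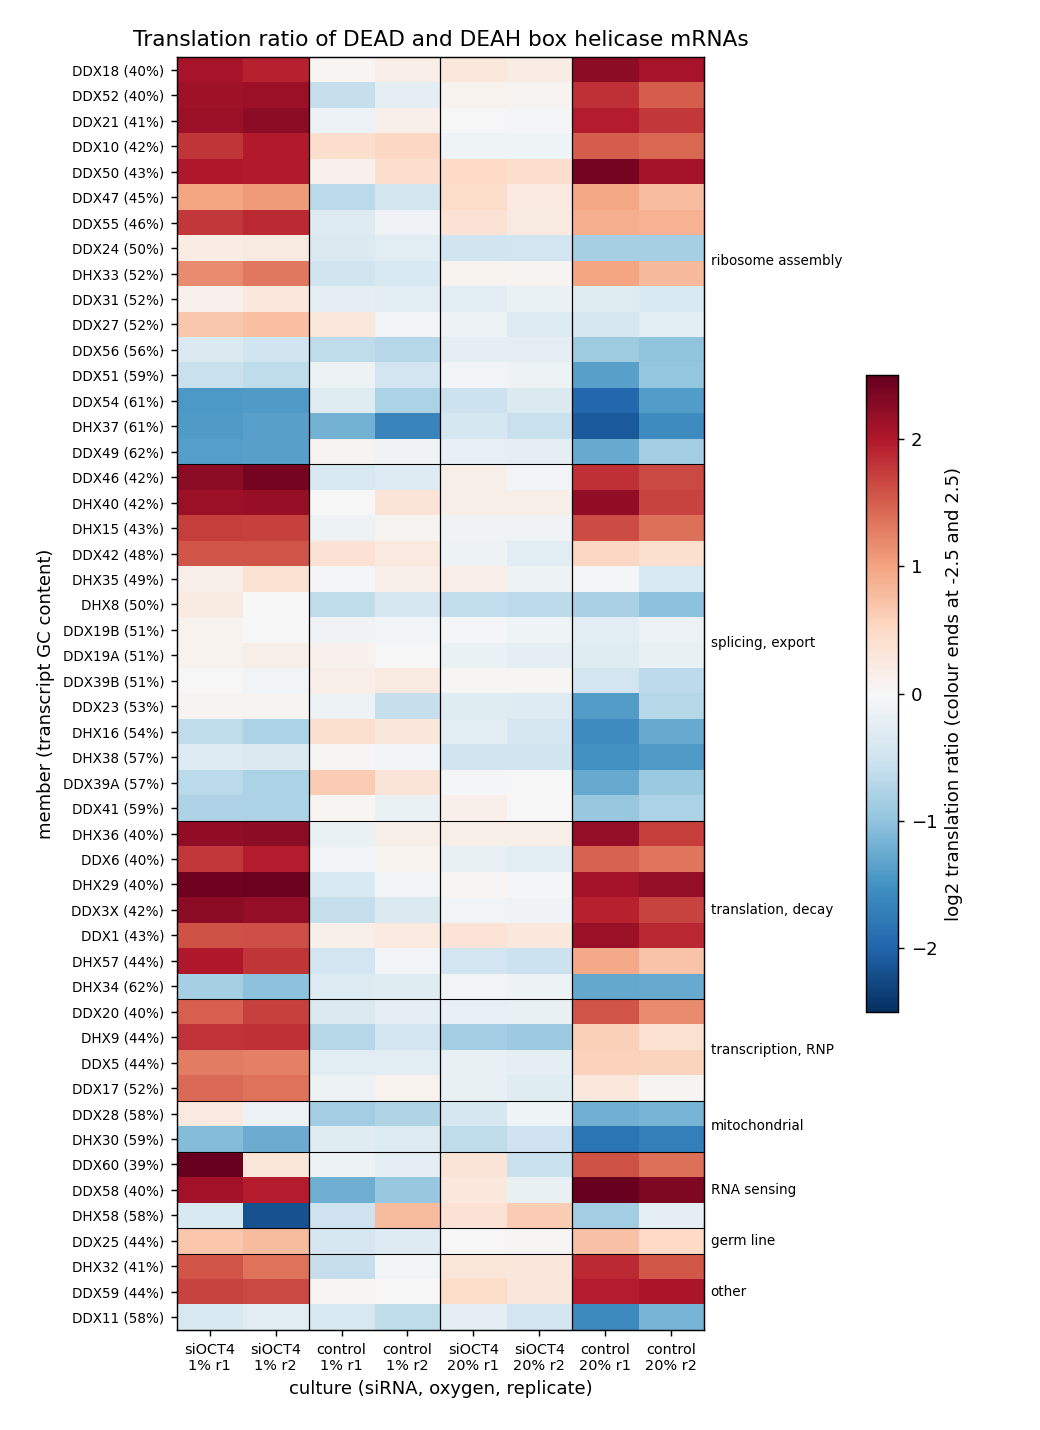
Log2 translation ratio of the 50 members (rows, grouped by role and sorted by transcript GC content, given in parentheses) in the 8 cultures (columns, r1 and r2 being the 2 cultures of a group). Red rows of AT-rich members stand out in siOCT4 cells at 1% oxygen and in control cells at 20% oxygen, where GC-rich members are blue, while the columns of control cells at 1% and of siOCT4 cells at 20% oxygen are pale.

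The split followed base composition. Of the 50 members, 23 had a transcript GC content under 45%, 14 of 45 to 55% and 13 over 55%. In the 23 AT-rich members the median was 3.99 and 3.79 in siOCT4 cells and 0.833 and 0.950 in control cells at 1% oxygen, and 1.06 and 0.973 in siOCT4 cells and 3.56 and 2.93 in control cells at 20% oxygen. In the 13 GC-rich members it was 0.624 and 0.576 in siOCT4 cells and 0.808 and 0.785 in control cells at 1% oxygen, and 0.860 and 0.860 in siOCT4 cells and 0.411 and 0.448 in control cells at 20% oxygen. The AT-rich members thus stood several-fold above the GC-rich ones in siOCT4 cells at 1% oxygen and in control cells at 20% oxygen, and near them in the other 2 groups. As a description over the 50 genes, which share libraries, Spearman's rho between ratio and GC content was -0.922 and -0.889 in siOCT4 cells and 0.0435 and -0.293 in control cells at 1% oxygen, and -0.462 and -0.317 in siOCT4 cells and -0.906 and -0.888 in control cells at 20% oxygen. Over all genes with a GC content, GC content accounted for 63.7 and 65.8% of the variance of the log2 ratio in siOCT4 cells and 0.0868 and 9.85% in control cells at 1% oxygen, and for 13.9 and 9.03% in siOCT4 cells and 71.8 and 64.9% in control cells at 20% oxygen.

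What produced the GC trend was not tested, and it moves with the groups. Each comparison is therefore given on the ratio as deposited and on a GC-corrected scale, on which the log2 ratio is replaced by its distance from the smooth GC trend of all genes in that culture. The GC content of a member depends on the transcripts annotated for it. For DDX17 it was 51.7% as the median of its transcripts and 45.2% for the longest, and DDX20 and DDX46 also differed by more than 3 percentage points.

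**Figure D2:**
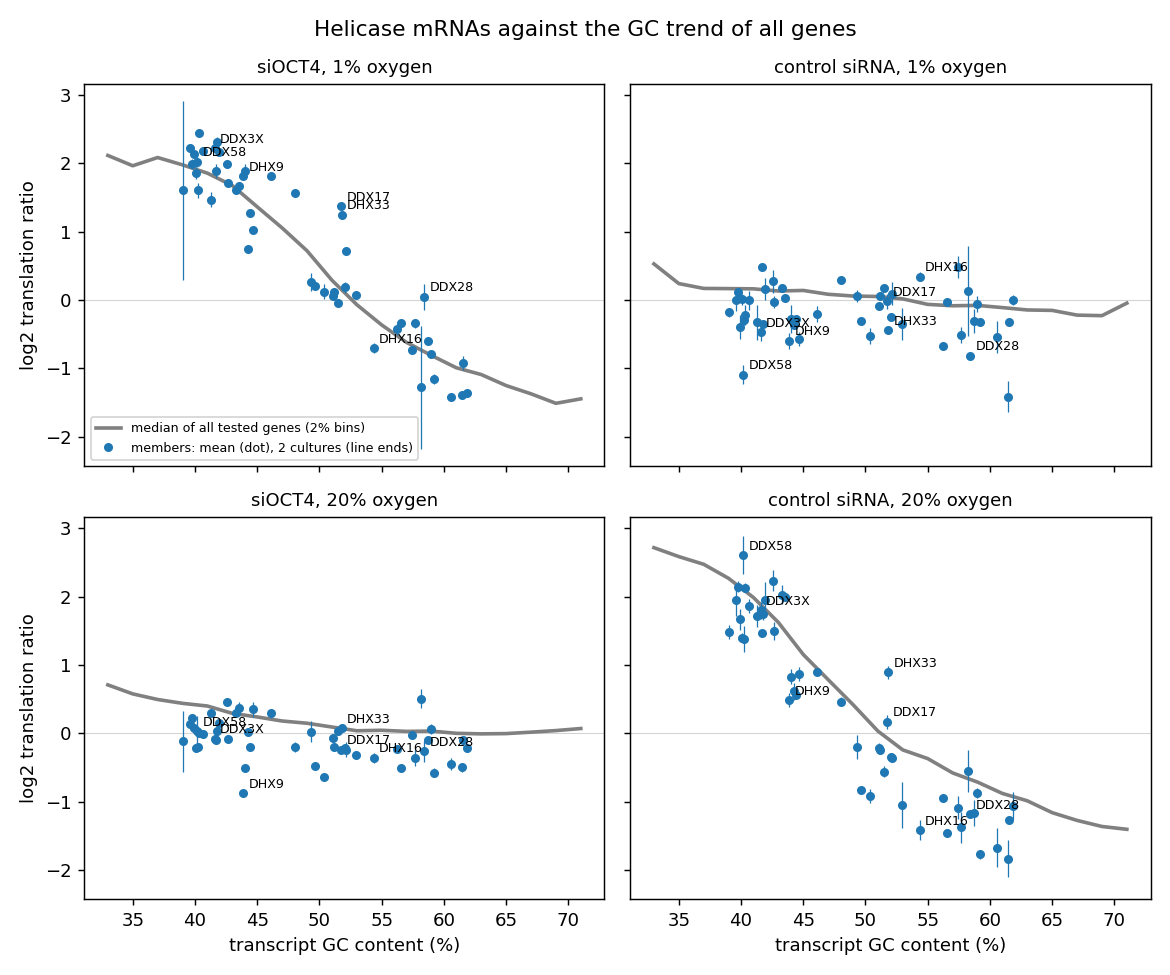
Log2 translation ratio (vertical) against transcript GC content in percent (horizontal) for the 50 members, 1 panel per group; dots are means of 2 cultures, vertical lines join the 2 cultures, and the grey line is the median of all tested genes in 2% bins. The trend is steep in siOCT4 cells at 1% oxygen and control cells at 20% oxygen and shallower in the other 2 panels, and DHX33 lies above the line in both steep panels.

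The first question of the design is what siOCT4 changed at each oxygen level. Changes are log2 differences of the ratio ± SE from limma, fitted across all genes with 2 cultures per group, and a member is called where the Benjamini-Hochberg adjusted p over all genes is under 0.05. At 1% oxygen, siOCT4 cells had a higher ratio than control cells for 31 of 50 members, where 41.1% of all genes were called higher, and a lower ratio for 7, against 19.9% of all genes. The median change was 1.34 over the members and 0.42 over all genes. After centring each culture on its own median the members' median was 0.95. On the GC-corrected scale 20 members were higher (22.0% of all genes) and 4 lower (23.1%), with a median of 0.25 over the members and -0.02 over all genes. A larger share of the members than of all genes was higher on both scales, and 20 members were called in the same direction on both.

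Of those 20 members, 13 kept both calls whichever culture was left out. The share of all genes called on both scales, or keeping both calls in this way, was not counted. Neither number is therefore set against all genes. Higher in siOCT4 cells were DDX3X, DDX17, DDX21, DDX46, DDX52, DDX55, DDX58, DHX9, DHX29, DHX33 and DHX57. DDX39A and DHX16 were lower.

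At 20% oxygen the direction was the opposite for most AT-rich members. The ratio as deposited was higher in siOCT4 cells for 14 members (19.2% of all genes) and lower for 25 (34.1%), with a median change of -0.55 over the members and -0.09 over all genes. On the GC-corrected scale 6 were higher (7.45%) and 4 lower (7.69%), and the members' median was 0.11. Whether the GC-corrected calls held with a culture left out could not be judged. Without either siOCT4 culture at 20% oxygen that group had a lone culture, and hardly any of all genes was called. Quantile normalization, which forces 1 distribution on all cultures, gave 0 higher and 17 lower as the split of this comparison, against 579 and 1259 of all 15864 genes. DDX25 and DDX47 were called lower as deposited and higher after the GC correction.

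**Figure D3:**
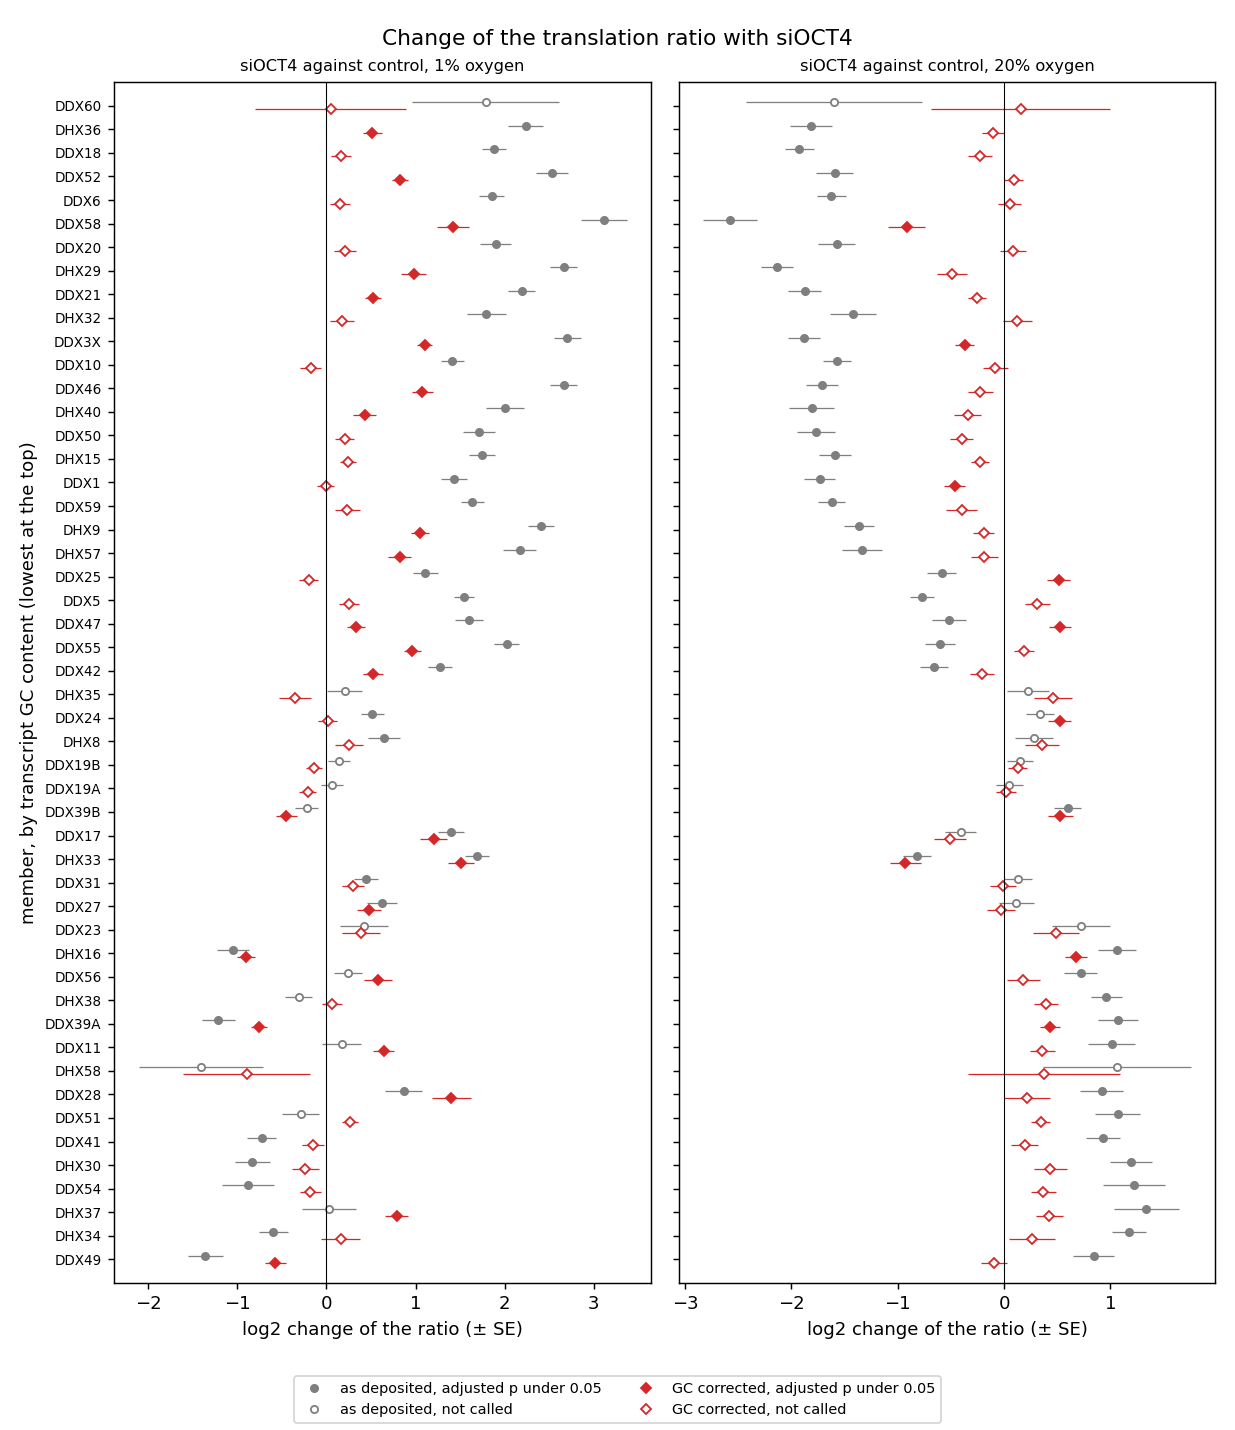
Log2 change of the ratio with siOCT4 against control siRNA (horizontal, ± SE) at 1% oxygen (left panel) and 20% oxygen (right panel) for each member, ordered by GC content with the lowest at the top; grey circles are ratios as deposited, red diamonds GC corrected, filled where the adjusted p is under 0.05. The grey values of the AT-rich members are positive at 1% and negative at 20% oxygen, and the red values lie closer to 0, with DDX58, DHX33 and DDX3X positive at 1% and negative at 20% oxygen on both scales.

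The second question is what low oxygen changed in each siRNA state. In siOCT4 cells the ratio at 1% oxygen was higher than at 20% oxygen for 30 members as deposited (37.4% of all genes) and lower for 7 (21.6%). The median change was 1.06 over the members and 0.27 over all genes. The split was 27 higher and 11 lower after median centring, against 4982 and 4615 of all 15864 genes. It was 28 higher and 0 lower after quantile normalization, against 2738 and 2280 of all genes. GC-corrected calls were 22 higher (19.0% of all genes) and 2 lower (18.4%), with medians of 0.36 over the members and 0.03 over all genes. DDX3X, DDX17, DDX21, DDX42, DDX46, DDX52, DHX9, DHX29, DHX33, DHX36 and DHX57 were called higher on both scales whichever culture was left out.

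In control cells the ratio at 1% oxygen was higher than at 20% oxygen for 12 members as deposited (20.5% of all genes) and lower for 24 (39.6%), with medians of -0.51 over the members and -0.31 over all genes. After the GC correction 14 were higher (23.2%) and 6 lower (22.9%), with medians of 0.20 over the members and 0.02 over all genes. On both scales and whichever culture was left out, DDX39A, DDX39B, DHX16, DHX30 and DHX38 were higher and DDX3X, DDX58 and DHX33 were lower. DDX5, DDX6 and DDX10 were called lower as deposited and higher after the correction.

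The interaction asks whether the siOCT4 effect differed between the oxygen levels, as the siOCT4 change at 1% oxygen minus that at 20% oxygen. It was above 0 for 27 members as deposited (42.5% of all genes) and below 0 for 11 (26.2%), with medians of 1.87 over the members and 0.49 over all genes. Quantile normalization gave 28 above and 5 below, against 3768 and 3266 of all 15864 genes. After the GC correction it was above 0 for 18 (22.4%) and below 0 for 7 (21.7%), with medians of 0.20 and -0.01. These comparisons share groups with one another, so they are given side by side and not as separate evidence.

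The groups with a steep GC trend differ in both factors, as do those with a weaker one, and these 2 pairs were compared for that reason. Set against control cells at 20% oxygen, siOCT4 cells at 1% oxygen had higher ratios of many members and lower ratios of few. As deposited, 17 members were higher (13.5% of all genes) and 0 lower (13.1%; 2 at an unadjusted limma p under 0.05), with a median change of 0.42 over the members and 0.01 over all genes. GC corrected, 27 were higher (18.4%) and 1 lower (19.3%), with medians of 0.48 and 0.00. The 1 member called lower was DDX1. As deposited, fewer members and fewer of all genes were called without either siOCT4 culture at 1% oxygen. After median centring the split was 13 higher and 2 lower, against 1518 and 2973 of all 15864 genes. After quantile normalization it was 0 and 0 (15 members at an unadjusted limma p under 0.05), against 59 and 94 of all genes. DDX17, DDX42 and DHX9 were called higher on both scales whichever culture was left out.

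**Figure D4:**
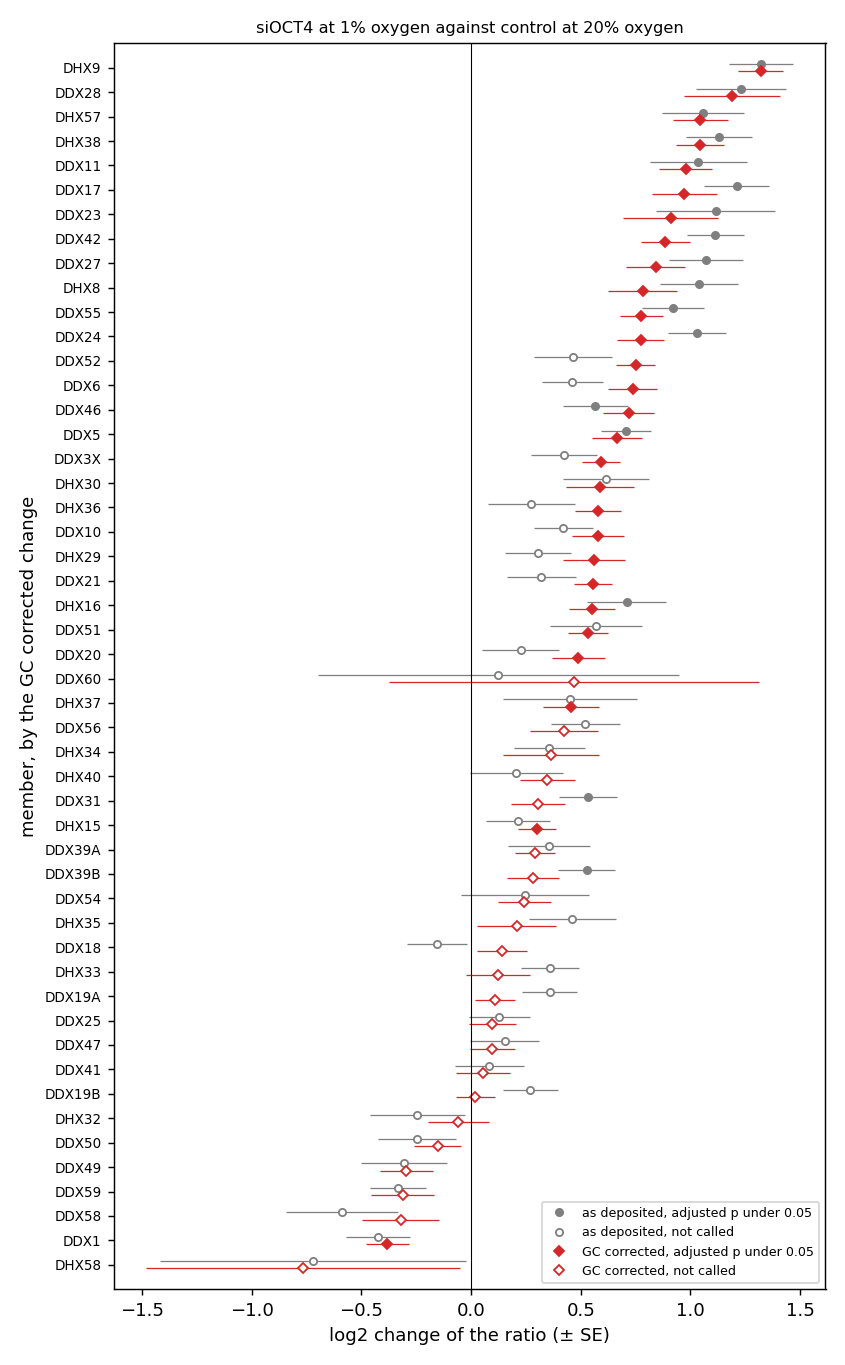
Log2 change of the ratio in siOCT4 cells at 1% oxygen against control cells at 20% oxygen (horizontal, ± SE) for each member, ordered by the GC-corrected change; grey circles are ratios as deposited, red diamonds GC corrected, filled where the adjusted p is under 0.05. Filled diamonds lie right of 0 for 27 members and left of 0 for DDX1 alone, and DHX9 has the largest change on both scales.

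Between siOCT4 cells at 20% oxygen and control cells at 1% oxygen, both with a weaker GC trend than the other 2 groups, few members were called as deposited. The trend was not absent or equal in them, GC content accounting for 13.9 and 9.03% of the variance of the log2 ratio in the siOCT4 cultures and 0.0868 and 9.85% in the control cultures. As deposited, 2 members were higher (8.78% of all genes) and 1 lower (2.91%). Median centring gave 1 and 3, against 947 and 660 of all 15864 genes. Quantile normalization gave 3 and 14, against 2753 and 2707 of all genes. GC corrected, 4 were higher (10.8%) and 7 lower (12.0%). The members higher as deposited were DDX58, by 1.12 ± 0.25 (adjusted p = 0.0446), and DDX47, by 0.92 ± 0.16 (adjusted p = 0.0230), while DDX10 was lower, at -0.58 ± 0.13 (adjusted p = 0.0456). Whether these calls held with a culture left out could not be judged, since without either siOCT4 culture at 20% oxygen no gene at all was called.

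Among the members that act in cytoplasmic translation and mRNA decay, the AT-rich ones moved together as deposited, as did AT-rich members of all roles. Of all 23 AT-rich members, 22 were higher with siOCT4 at 1% oxygen and 22 lower at 20% oxygen. Of the 7 members of this role, 6 were higher and 1 lower in siOCT4 than in control cells at 1% oxygen (41.1% and 19.9% of all genes), and 1 higher and 6 lower at 20% oxygen (19.2% and 34.1% of all genes). After the GC correction the counts were 4 and 0 at 1% oxygen (22.0% and 23.1% of all genes), and 0 and 2 at 20% oxygen (7.45% and 7.69% of all genes).

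DDX3X helps the small ribosomal subunit load and scan structured mRNAs. Its ratios were 4.74 and 4.62 in siOCT4 cells and 0.661 and 0.782 in control cells at 1% oxygen, and 0.951 and 0.946 in siOCT4 cells and 3.79 and 3.21 in control cells at 20% oxygen. The 2 cultures of each group lay together, and siOCT4 and control cells did not overlap at either oxygen level. The change with siOCT4 was 2.70 ± 0.15 at 1% oxygen (adjusted p = 0.000303) and -1.88 ± 0.15 at 20% oxygen (adjusted p = 0.000653). GC corrected, it was 1.10 ± 0.09 at 1% oxygen (adjusted p = 0.00106) and -0.37 ± 0.09 at 20% oxygen (adjusted p = 0.0434). Its interaction was 4.58 ± 0.21 as deposited and 1.47 ± 0.12 GC corrected.

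DHX29 binds the small subunit and assists initiation on mRNAs with stable structure. It had ratios of 5.41 and 5.43 in siOCT4 cells and 0.773 and 0.950 in control cells at 1% oxygen, and 1.03 and 0.973 in siOCT4 cells and 4.21 and 4.58 in control cells at 20% oxygen. These were the highest means of any member in siOCT4 cells at 1% oxygen, and the groups did not overlap at 1% or at 20% oxygen. The GC-corrected change with siOCT4 at 1% oxygen was 0.98 ± 0.14 (adjusted p = 0.00363), against 2.66 ± 0.15 as deposited.

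DHX36 resolves G-quadruplexes in RNA. Its ratios were 4.68 and 4.72 in siOCT4 cells and 0.897 and 1.11 in control cells at 1% oxygen, and 1.10 and 1.11 in siOCT4 cells and 4.57 and 3.30 in control cells at 20% oxygen, high in both siOCT4 cultures at 1% oxygen and both control cultures at 20% oxygen and near 1 in the other 4. Low oxygen in siOCT4 cells gave a change of 2.09 ± 0.20 as deposited and 0.68 ± 0.10 GC corrected (adjusted p = 0.00623). DHX57, also of this group, had ratios of 3.99 and 3.43 in siOCT4 cells and 0.715 and 0.949 in control cells at 1% oxygen, and 0.717 and 0.692 in siOCT4 cells and 1.92 and 1.65 in control cells at 20% oxygen. Its control values at 20% oxygen were lower than those of DDX3X, DHX29 and DHX36, and siOCT4 cells at 1% oxygen lay above them without overlap, by 1.06 ± 0.19 as deposited (adjusted p = 0.0130) and 1.04 ± 0.13 GC corrected (adjusted p = 0.00370).

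DDX6 represses translation and promotes decapping in processing bodies. It had ratios of 3.42 and 3.87 in siOCT4 cells and 0.954 and 1.06 in control cells at 1% oxygen, and 0.881 and 0.837 in siOCT4 cells and 2.76 and 2.53 in control cells at 20% oxygen. Its change with siOCT4 was 1.86 ± 0.14 at 1% oxygen as deposited (adjusted p = 0.000313), and after the GC correction it was 0.15 ± 0.11 and no longer called (adjusted p = 0.306). DDX1, a subunit of the tRNA ligase complex, had ratios of 3.02 and 3.07 in siOCT4 cells and 1.09 and 1.18 in control cells at 1% oxygen, and 1.26 and 1.19 in siOCT4 cells and 4.49 and 3.71 in control cells at 20% oxygen, and was the member lower in siOCT4 cells at 1% oxygen than in control cells at 20% oxygen after the GC correction (-0.38 ± 0.10, adjusted p = 0.0284). DHX34, which acts in nonsense-mediated decay and is the 1 GC-rich gene of the group, had ratios of 0.566 and 0.494 in siOCT4 cells and 0.793 and 0.808 in control cells at 1% oxygen, and 0.954 and 0.915 in siOCT4 cells and 0.411 and 0.416 in control cells at 20% oxygen, lower in siOCT4 than in control cells at 1% oxygen and higher at 20% oxygen as deposited, without overlap. Its difference with siOCT4 at 1% oxygen was -0.60 ± 0.16 as deposited (adjusted p = 0.0202) and, with the opposite sign and not called, 0.16 ± 0.22 GC corrected (adjusted p = 0.579).

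Of the 4 members that act in transcription, small RNA processing and RNP assembly, 4 were higher at 1% than at 20% oxygen in siOCT4 cells as deposited (37.4% of all genes) and 3 GC corrected (19.0%). Against control cells at 20% oxygen, siOCT4 cells at 1% oxygen were higher for 3 as deposited (13.5% of all genes) and 4 GC corrected (18.4%).

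DHX9, RNA helicase A, unwinds double-stranded RNA and bridges transcription factors to RNA polymerase II. Its ratios were 3.48 and 3.54 in siOCT4 cells and 0.611 and 0.715 in control cells at 1% oxygen, and 0.559 and 0.531 in siOCT4 cells and 1.51 and 1.30 in control cells at 20% oxygen. The siOCT4 cultures at 1% oxygen were higher than all other 6, and the control cultures at 20% oxygen came next. The ratio in siOCT4 cells at 1% oxygen exceeded that of control cells at 20% oxygen by 1.32 ± 0.15 as deposited (adjusted p = 0.00496) and 1.32 ± 0.10 GC corrected (adjusted p = 0.00224). With low oxygen in siOCT4 cells it changed by 2.69 ± 0.15 as deposited (adjusted p = 0.000683) and 1.51 ± 0.10 GC corrected (adjusted p = 0.00270). These were the largest increases of any member in that comparison.

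DDX17 and DDX5 are close paralogues that act as transcriptional coactivators and in microRNA processing, and reads they share could have been assigned to either. DDX17 had ratios of 2.65 and 2.55 in siOCT4 cells and 0.912 and 1.07 in control cells at 1% oxygen, and 0.878 and 0.816 in siOCT4 cells and 1.20 and 1.05 in control cells at 20% oxygen. Both siOCT4 cultures at 1% oxygen lay above all other cultures. Its change with siOCT4 at 1% oxygen was 1.40 ± 0.15 as deposited (adjusted p = 0.000634) and 1.20 ± 0.15 GC corrected (adjusted p = 0.00238), but with the GC content of its longest transcript it was 0.33 ± 0.10 (adjusted p = 0.0389). Likewise its GC-corrected interaction of 1.71 ± 0.21 was -0.06 ± 0.14 with the longest transcript (adjusted p = 0.773), and its GC-corrected change in siOCT4 cells at 1% oxygen against control cells at 20% oxygen was 0.97 ± 0.15 with the median and 1.08 ± 0.10 with the longest (adjusted p = 0.00624 and 0.00257). DDX5 had ratios of 2.44 and 2.39 in siOCT4 cells and 0.833 and 0.822 in control cells at 1% oxygen, and 0.881 and 0.858 in siOCT4 cells and 1.50 and 1.46 in control cells at 20% oxygen, with siOCT4 cells at 1% oxygen highest and control cells at 20% oxygen next. Its difference was 1.55 ± 0.11 with siOCT4 at 1% oxygen as deposited (adjusted p = 0.000313) and 0.25 ± 0.11 GC corrected (adjusted p = 0.125). DDX20 (Gemin3), a subunit of the SMN complex that assembles spliceosomal RNPs, had differences of 1.90 ± 0.18 as deposited and 0.21 ± 0.12 GC corrected in that comparison, called as deposited only.

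Ribosome assembly is the largest role, with 16 members. Between siOCT4 and control cells at 1% oxygen, 11 were higher and 2 lower as deposited (41.1% and 19.9% of all genes), and 8 higher and 1 lower GC corrected (22.0% and 23.1% of all genes). At 20% oxygen the counts were 5 and 8 as deposited (19.2% and 34.1% of all genes), and 2 and 1 GC corrected (7.45% and 7.69% of all genes), the last near the share of all genes.

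DHX33, a DEAH box protein of ribosomal RNA synthesis, had ratios of 2.28 and 2.48 in siOCT4 cells and 0.708 and 0.766 in control cells at 1% oxygen, and 1.06 and 1.05 in siOCT4 cells and 1.97 and 1.74 in control cells at 20% oxygen. The groups did not overlap, and the 2 groups in which AT-rich members were high were also the highest here, although its transcripts hold 51.8% G and C. The correction moved its values little: with siOCT4 the change was 1.69 ± 0.13 as deposited and 1.51 ± 0.15 GC corrected at 1% oxygen (adjusted p = 0.000326 and 0.00137), and -0.82 ± 0.13 and -0.93 ± 0.15 at 20% oxygen (adjusted p = 0.00389 and 0.0209). There was little to remove at this GC content. At about 51% the median log2 ratio of all genes was 0.29 in siOCT4 and 0.05 in control cells at 1% oxygen. It was 0.09 and 0.03 at 20% oxygen. With length in the correction the change with siOCT4 was 1.21 ± 0.14 at 1% and -0.91 ± 0.14 at 20% oxygen. Its GC-corrected interaction, 2.44 ± 0.21 (adjusted p = 0.00121), was the largest of the 50 members with the median GC content of the transcripts. Its longest transcript holds 48.8% G and C, so its corrected values depend on the transcript chosen.

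DDX21, a nucleolar helicase of ribosomal RNA transcription and processing, had ratios of 4.38 and 4.72 in siOCT4 cells and 0.904 and 1.10 in control cells at 1% oxygen, and 1.01 and 0.979 in siOCT4 cells and 3.89 and 3.40 in control cells at 20% oxygen. Its values were above 3 in every culture of siOCT4 cells at 1% oxygen and of control cells at 20% oxygen and near 1 elsewhere. With siOCT4 it changed by 2.19 ± 0.16 as deposited (adjusted p = 0.000311) and 0.52 ± 0.09 GC corrected (adjusted p = 0.00573) at 1% oxygen. Its close paralogue DDX50, with which reads may be shared, had differences of 1.71 ± 0.18 as deposited and 0.20 ± 0.11 GC corrected, and only the value as deposited was called.

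DDX52 and DDX55, which act in the making of the small and the large subunit, were higher in siOCT4 than in control cells at 1% oxygen by 0.82 ± 0.09 (adjusted p = 0.00173) and 0.96 ± 0.10 (adjusted p = 0.00147) GC corrected. As deposited their changes were 2.53 ± 0.18 and 2.02 ± 0.14. DDX18, a nucleolar helicase, had ratios of 4.17 and 3.79 in siOCT4 cells and 1.04 and 1.13 in control cells at 1% oxygen, and 1.19 and 1.14 in siOCT4 cells and 4.69 and 4.19 in control cells at 20% oxygen. The siOCT4 cultures lay above the control cultures at 1% oxygen and below them at 20% oxygen, without overlap. The difference with siOCT4 was 1.88 ± 0.14 at 1% and -1.92 ± 0.14 at 20% oxygen as deposited. After the GC correction it was 0.16 ± 0.11 and -0.22 ± 0.11, and neither was called.

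DDX10 and DDX47, both of the small subunit's assembly, differed from each other in the groups with lower ratios. DDX10 had ratios of 3.46 and 3.97 in siOCT4 cells and 1.35 and 1.43 in control cells at 1% oxygen, and 0.931 and 0.930 in siOCT4 cells and 2.85 and 2.69 in control cells at 20% oxygen, its control values at 1% oxygen being higher than both siOCT4 values at 20% oxygen. DDX47 had ratios of 1.97 and 2.09 in siOCT4 cells and 0.624 and 0.724 in control cells at 1% oxygen, and 1.38 and 1.18 in siOCT4 cells and 1.96 and 1.70 in control cells at 20% oxygen, with siOCT4 cells at 20% oxygen above control cells at 1% oxygen without overlap. GC corrected, low oxygen changed DDX47 by -0.43 ± 0.10 in siOCT4 cells (adjusted p = 0.0241), whereas as deposited the change was 0.67 ± 0.16 (adjusted p = 0.0127).

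The GC-rich members of ribosome assembly had low ratios in the steep groups. DHX37, which releases the U3 small nucleolar RNA from the small-subunit precursor, had ratios of 0.377 and 0.388 in siOCT4 cells and 0.438 and 0.320 in control cells at 1% oxygen, and 0.739 and 0.676 in siOCT4 cells and 0.232 and 0.337 in control cells at 20% oxygen. DDX54 had ratios of 0.368 and 0.376 in siOCT4 cells and 0.808 and 0.581 in control cells at 1% oxygen, and 0.688 and 0.777 in siOCT4 cells and 0.258 and 0.381 in control cells at 20% oxygen. DDX49 had ratios of 0.387 and 0.391 in siOCT4 cells and 1.05 and 0.946 in control cells at 1% oxygen, and 0.864 and 0.860 in siOCT4 cells and 0.419 and 0.551 in control cells at 20% oxygen. For DDX54 and DDX49 siOCT4 cells lay below control cells at 1% oxygen and above them at 20% oxygen, without overlap, and for DHX37 the 2 groups overlapped at 1% oxygen. DDX49 changed by -1.36 ± 0.19 as deposited (adjusted p = 0.00180) and -0.58 ± 0.12 GC corrected (adjusted p = 0.0121) with siOCT4 at 1% oxygen. DHX37 had a difference of 0.03 ± 0.31 as deposited (adjusted p = 0.938) and of 0.79 ± 0.13 GC corrected (adjusted p = 0.00515). DDX24 had ratios of 1.14 and 1.16 in siOCT4 cells and 0.778 and 0.838 in control cells at 1% oxygen, and 0.707 and 0.722 in siOCT4 cells and 0.565 and 0.564 in control cells at 20% oxygen, highest in siOCT4 cells at 1% oxygen, where it exceeded control cells at 20% oxygen by 1.03 ± 0.13 as deposited and 0.77 ± 0.11 GC corrected (adjusted p = 0.00615 and 0.00494). Of the 4 further members of this role, DDX27 and DDX31 were higher in siOCT4 than in control cells at 1% oxygen as deposited, by 0.62 ± 0.17 and 0.44 ± 0.13, and had GC-corrected differences of 0.48 ± 0.14 and 0.30 ± 0.12 (adjusted p = 0.0330 and 0.0961). DDX51 was not called, at -0.29 ± 0.21 as deposited and 0.27 ± 0.09 GC corrected (adjusted p = 0.0581). DDX56 was not called as deposited, at 0.24 ± 0.16 (adjusted p = 0.228), and was higher GC corrected, by 0.58 ± 0.15 (adjusted p = 0.0273).

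The 14 members of splicing and mRNA export were called in both directions. In control cells at 1% against 20% oxygen 5 were higher and 3 lower as deposited (20.5% and 39.6% of all genes), and 8 higher and 0 lower GC corrected (23.2% and 22.9% of all genes). Between siOCT4 and control cells at 1% oxygen 5 were higher and 3 lower as deposited (41.1% and 19.9% of all genes), and 3 and 3 GC corrected (22.0% and 23.1% of all genes), shares near those of all genes on both scales.

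DHX16, the helicase that activates the spliceosome for the first step of splicing, had ratios of 0.647 and 0.582 in siOCT4 cells and 1.32 and 1.22 in control cells at 1% oxygen, and 0.821 and 0.744 in siOCT4 cells and 0.338 and 0.417 in control cells at 20% oxygen. Control cells at 1% oxygen were the highest and control cells at 20% oxygen the lowest, with no overlap between any 2 groups. With siOCT4 it changed by -1.05 ± 0.18 as deposited and -0.90 ± 0.10 GC corrected at 1% oxygen (adjusted p = 0.00361 and 0.00202). At 1% against 20% oxygen in control cells the change was 1.76 ± 0.18 as deposited and 1.46 ± 0.10 GC corrected (adjusted p = 0.000487 and 0.000638). Its interaction of -1.58 ± 0.15 after the GC correction was the lowest of the 50.

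DDX39A and DDX39B (UAP56) are near-identical helicases that couple splicing to mRNA export, and reads common to both could have been assigned to either. DDX39A had ratios of 0.624 and 0.580 in siOCT4 cells and 1.56 and 1.25 in control cells at 1% oxygen, and 0.986 and 0.989 in siOCT4 cells and 0.419 and 0.528 in control cells at 20% oxygen. DDX39B had ratios of 0.989 and 0.959 in siOCT4 cells and 1.10 and 1.17 in control cells at 1% oxygen, and 1.02 and 1.02 in siOCT4 cells and 0.715 and 0.639 in control cells at 20% oxygen, a narrower range with the highest values likewise in control cells at 1% oxygen and the lowest in control cells at 20% oxygen. With low oxygen in control cells DDX39A changed by 1.57 ± 0.19 as deposited and 1.05 ± 0.09 GC corrected, and DDX39B by 0.75 ± 0.13 and 0.73 ± 0.12. The adjusted p of DDX39B was 0.00357 as deposited and 0.00491 GC corrected.

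DHX38, which remodels the spliceosome between its chemical steps, had ratios of 0.802 and 0.784 in siOCT4 cells and 1.02 and 0.949 in control cells at 1% oxygen, and 0.705 and 0.708 in siOCT4 cells and 0.351 and 0.373 in control cells at 20% oxygen. The control cultures at 20% oxygen were the lowest and overlapped with no other group. It changed by 1.44 ± 0.15 with low oxygen in control cells as deposited (adjusted p = 0.000511) and by 0.98 ± 0.11 GC corrected (adjusted p = 0.00165). In siOCT4 cells at 1% oxygen against control cells at 20% oxygen the changes were 1.13 ± 0.15 and 1.04 ± 0.11.

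DDX46, which helps the U2 snRNP bind the branch point, had ratios of 4.69 and 5.25 in siOCT4 cells and 0.766 and 0.804 in control cells at 1% oxygen, and 1.11 and 0.950 in siOCT4 cells and 3.56 and 3.16 in control cells at 20% oxygen. The siOCT4 cultures at 1% oxygen were the highest of the 8. The change with siOCT4 at 1% oxygen was 2.66 ± 0.15 as deposited and 1.08 ± 0.12 GC corrected (adjusted p = 0.000303 and 0.00172). DDX42, which associates with the SF3b part of the U2 snRNP, had ratios of 2.98 and 2.97 in siOCT4 cells and 1.28 and 1.18 in control cells at 1% oxygen, and 0.915 and 0.831 in siOCT4 cells and 1.44 and 1.31 in control cells at 20% oxygen, and siOCT4 cells at 1% oxygen exceeded control cells at 20% oxygen by 1.11 ± 0.13 as deposited and 0.89 ± 0.11 GC corrected (adjusted p = 0.00540 and 0.00410).

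DHX15, which takes apart spent spliceosomes, had ratios of 3.31 and 3.26 in siOCT4 cells and 0.918 and 1.05 in control cells at 1% oxygen, and 0.941 and 0.941 in siOCT4 cells and 3.09 and 2.59 in control cells at 20% oxygen. It followed the AT-rich pattern, with a change of 1.74 ± 0.15 with siOCT4 at 1% oxygen as deposited (adjusted p = 0.000361) and 0.24 ± 0.09 GC corrected (adjusted p = 0.0699). DDX19A and DDX19B, near-identical helicases of mRNA export at the nuclear pore, had ratios between 0.810 and 1.11 over all 8 cultures and were called in none of the 7 comparisons as deposited. On the GC-corrected log2 scale both control cultures at 1% oxygen lay above both at 20% oxygen. This order of 2 against 2 cultures is a description and not a test. DDX19A had 0.082 and -0.007 against -0.308 and -0.263, and DDX19B -0.117 and -0.088 against -0.293 and -0.236. DDX23, DHX8 and DDX41 have splicing roles as well. Their changes in siOCT4 cells at 1% oxygen against control cells at 20% oxygen were 1.12 ± 0.27, 1.04 ± 0.18 and 0.08 ± 0.16 as deposited, the first and the second of them called (adjusted p = 0.0315 and 0.0116). GC corrected they were 0.91 ± 0.22, 0.78 ± 0.16 and 0.05 ± 0.12 (adjusted p = 0.0231, 0.0139 and 0.767). DHX35, a component of the catalytic spliceosome, was not called with siOCT4 at 1% oxygen (0.20 ± 0.20 as deposited and -0.35 ± 0.18 GC corrected), and DHX40 was higher by 2.00 ± 0.21 as deposited and 0.43 ± 0.13 GC corrected (adjusted p = 0.000662 and 0.0374).

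**Figure D5:**
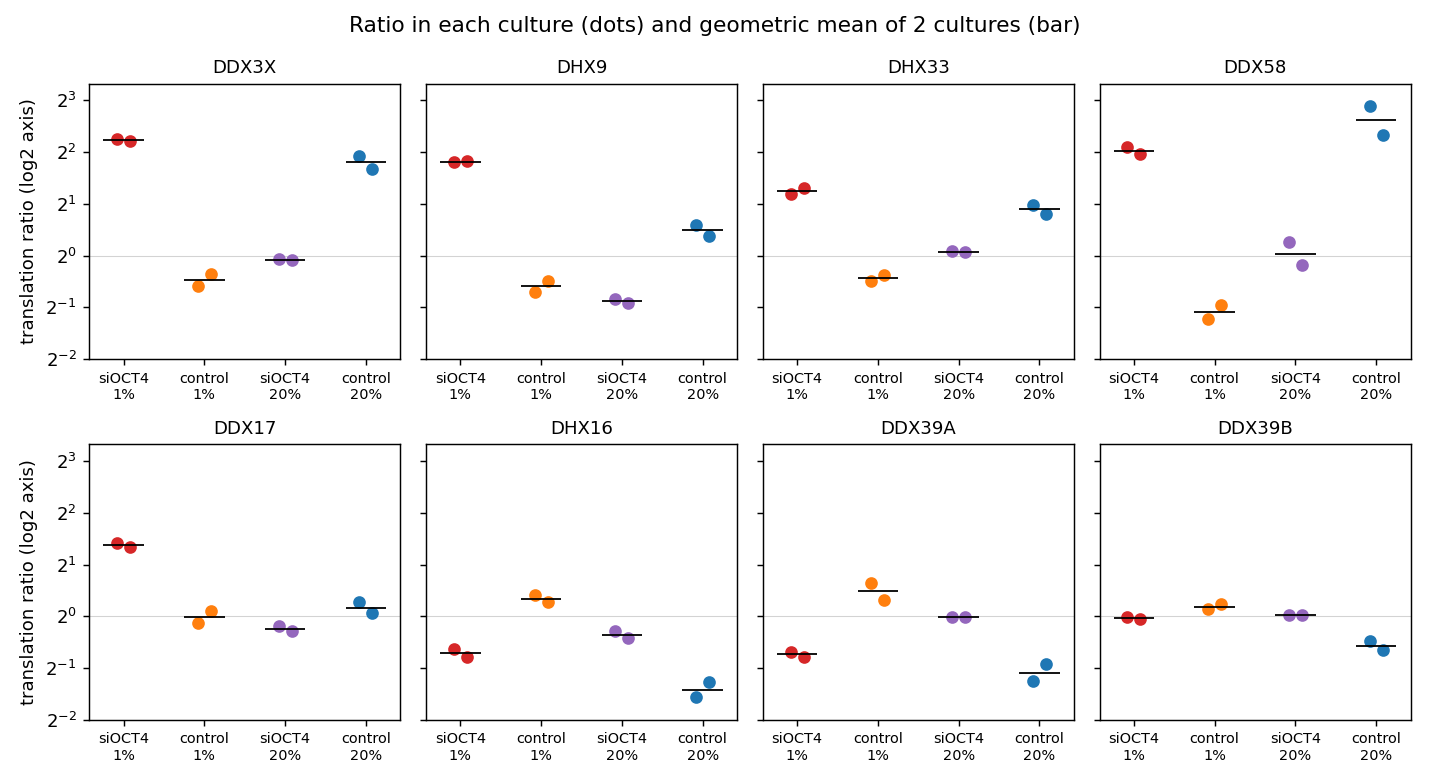
Translation ratio (vertical, log2 axis) of 8 members in each culture (dots) with the geometric mean of the 2 cultures (bar), by siRNA and oxygen. DDX3X, DHX9, DHX33 and DDX58 are high in siOCT4 cells at 1% oxygen and in control cells at 20% oxygen, DDX17 is highest in siOCT4 cells at 1% oxygen, and DHX16, DDX39A and DDX39B are highest in control cells at 1% oxygen.

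Of the 3 sensors of foreign RNA, DDX58 was called with siOCT4 and with oxygen on both scales, and DDX60 in the interaction as deposited. DDX58 (RIG-I) detects viral RNA with a triphosphate end and starts the interferon response. Its ratios were 4.27 and 3.87 in siOCT4 cells and 0.428 and 0.515 in control cells at 1% oxygen, and 1.20 and 0.876 in siOCT4 cells and 7.42 and 5.02 in control cells at 20% oxygen. Control cells spanned from the lowest AT-rich values at 1% oxygen to the highest of all members at 20% oxygen, and siOCT4 and control cells did not overlap at either oxygen level. The change at 1% against 20% oxygen in control cells was -3.70 ± 0.25 as deposited (adjusted p = 0.000178) and -1.74 ± 0.17 GC corrected (adjusted p = 0.00124). With siOCT4 it was 3.11 ± 0.25 at 1% oxygen and -2.58 ± 0.25 at 20% oxygen as deposited, and 1.42 ± 0.17 and -0.91 ± 0.17 GC corrected, with adjusted p of 0.00234 and 0.0280 after the correction.

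DHX58 (LGP2), which modulates RIG-I-like sensing, and DDX60, an interferon-induced helicase, had values that repeated poorly. DHX58 had ratios of 0.771 and 0.221 in siOCT4 cells and 0.696 and 1.74 in control cells at 1% oxygen, and 1.29 and 1.56 in siOCT4 cells and 0.549 and 0.843 in control cells at 20% oxygen. DDX60 had ratios of 7.54 and 1.23 in siOCT4 cells and 0.921 and 0.845 in control cells at 1% oxygen, and 1.26 and 0.676 in siOCT4 cells and 3.01 and 2.60 in control cells at 20% oxygen. The 2 siOCT4 cultures at 1% oxygen differed 6.13-fold for DDX60, the widest gap of any member. Both genes had, in 7 of 8 cultures, a ratio shared by at least 3 genes of the culture, and neither was called in any comparison except the interaction of DDX60 as deposited, 3.39 ± 1.17 (adjusted p = 0.0422).

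The remaining members have mitochondrial, germ-line or DNA-related roles. DDX28, of mitochondrial ribosome assembly, had ratios of 1.18 and 0.907 in siOCT4 cells and 0.545 and 0.592 in control cells at 1% oxygen, and 0.746 and 0.929 in siOCT4 cells and 0.434 and 0.448 in control cells at 20% oxygen. It was higher in siOCT4 cells at 1% oxygen than in either control group, with a GC-corrected change of 1.40 ± 0.22 against control at 1% oxygen (adjusted p = 0.00477) and 1.19 ± 0.22 against control at 20% oxygen (adjusted p = 0.0105). DHX30, which binds mitochondrial transcripts, had ratios of 0.473 and 0.426 in siOCT4 cells and 0.813 and 0.785 in control cells at 1% oxygen, and 0.641 and 0.702 in siOCT4 cells and 0.280 and 0.307 in control cells at 20% oxygen. It was lower in siOCT4 than in control cells at 1% oxygen and higher at 20% oxygen, without overlap, and was higher at 1% than at 20% oxygen in control cells, by 1.45 ± 0.20 as deposited and 0.83 ± 0.15 GC corrected (adjusted p = 0.00138 and 0.00830).

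DDX25, known as a testis helicase, had ratios of 1.62 and 1.73 in siOCT4 cells and 0.751 and 0.800 in control cells at 1% oxygen, and 1.01 and 1.02 in siOCT4 cells and 1.66 and 1.41 in control cells at 20% oxygen. The siOCT4 cultures lay above the control cultures at 1% oxygen and below them at 20% oxygen, without overlap. Its change at 1% against 20% oxygen in siOCT4 cells was 0.72 ± 0.14 as deposited and -0.42 ± 0.11 GC corrected, called in opposite directions (adjusted p = 0.00598 and 0.0294). DDX11, a DNA helicase of sister chromatid cohesion with near-identical copies in the genome that may share its reads, was higher in siOCT4 cells at 1% oxygen than in control cells at 20% oxygen, by 1.04 ± 0.22 as deposited (adjusted p = 0.0220) and 0.98 ± 0.12 GC corrected (adjusted p = 0.00382). DDX59 had ratios of 3.20 and 3.13 in siOCT4 cells and 1.04 and 1.00 in control cells at 1% oxygen, and 1.38 and 1.22 in siOCT4 cells and 3.88 and 4.10 in control cells at 20% oxygen, with control cells at 20% oxygen the highest. DDX59, the gene of an inherited orofaciodigital syndrome, was lower at 1% than at 20% oxygen in control cells, at -1.97 ± 0.13 as deposited and -0.55 ± 0.14 GC corrected (adjusted p = 0.000166 and 0.0263). DHX32 had differences of -2.04 ± 0.22 as deposited (adjusted p = 0.000567) and -0.23 ± 0.14 GC corrected (adjusted p = 0.217) in that comparison.

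The partners of these helicases were read from lists of 17 other RNA helicases and of 30 cofactors. Most of the cofactors carry a G-patch or a MIF4G-type domain, the domains that activate DEAH and DEAD box helicases, whereas EIF4B, EIF4H and PDCD4 are regulators of eIF4A with other domains. In siOCT4 cells at 1% against 20% oxygen 11 of the 17 helicases were higher and 1 lower as deposited (37.4% and 21.6% of all genes), and 10 and 2 GC corrected (19.0% and 18.4% of all genes). Of the 30 cofactors 20 were higher and 0 lower as deposited, and 18 and 0 GC corrected. The median change was 1.34 over the helicases and 1.18 over the cofactors as deposited, and 0.62 and 0.61 GC corrected. More genes were higher than lower in both lists, and over all genes too.

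Between siOCT4 and control cells at 1% oxygen 8 of the 17 helicases were higher and 2 lower GC corrected (22.0% and 23.1% of all genes), and 11 and 7 of the 30 cofactors, the last near the share of all genes. DICER1, the nuclease with a helicase domain that makes microRNAs, was higher by 1.41 ± 0.15 (adjusted p = 0.00164), while EIF4A2, a DEAD box translation factor named by another scheme, was lower, at -0.66 ± 0.13 (adjusted p = 0.00923). EIF4G3, a MIF4G scaffold of eIF4A, was higher by 1.46 ± 0.11 (adjusted p = 0.00100), and SUGP1, a G-patch splicing protein that activates DHX15, was lower, at -0.86 ± 0.14 (adjusted p = 0.00580). In control cells at 1% against 20% oxygen UPF1, the helicase of nonsense-mediated decay, was higher by 2.14 ± 0.24 as deposited and 1.46 ± 0.15 GC corrected (adjusted p = 0.000666 and 0.00125).

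The table holds ratios and no levels, so the knockdown of OCT4 and the cell type could not be checked by RNA amount. All 12 pluripotency markers listed had a ratio in every culture, against 4 of 7 fibroblast and 3 of 6 trophoblast markers. Of all 28252 rows, 15864 had one. POU5F1 itself had ratios of 0.453 and 0.532 in siOCT4 cells and 1.13 and 0.810 in control cells at 1% oxygen, and 1.41 and 1.42 in siOCT4 cells and 0.758 and 0.981 in control cells at 20% oxygen, which say how its RNA was distributed and not how much there was. The depth of the libraries is not given with the ratios, so no counting interval can be set on them.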

How the data were processed

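The 8 total RNA and 8 ribosome-bound RNA libraries were compared through 1 deposited table of translation ratios, which the authors computed per gene and culture as the ribosome-bound over the total RNA value. Per the submitters' processing notes edgeR and hg19 were used, with their roles, the mapper, filters and depth not given in the sources used here. Columns marked "sO" were read as siOCT4.

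The log2 ratio of 15864 genes was fitted with limma 3.58.1 (R 4.3.3, statmod 1.5.0; trend and robust settings, 4 group means, 4 residual degrees of freedom), in 7 comparisons. Two-sided p-values were adjusted by Benjamini-Hochberg across all genes of a comparison, with a threshold of 0.05. The GC-corrected log2 ratio is the residual from a spline (6 degrees of freedom) on transcript GC content, the median over a gene's protein-coding transcripts in GENCODE release 29, matched by symbol for 15261 genes (96.2%) and all 50 members; it is on another build, so no coordinates are given. Ratios shared by at least 3 genes of a culture (relative tolerance 2e-06) were called recurrent; 13 members had one. Median centring, quantile normalization, a replicate block, a length term, pseudocounts of 0.01 and 0.1 and leaving out each culture were tried. The fit was tested on simulated data. Figures used matplotlib 3.10.9.

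Members and lists were chosen with earlier results of these data known. Every member could be named. Values per culture were given for DDX3X, DDX5, DDX6, DDX21, DDX39B, DHX9, DHX15, DHX36 and the 3 members per direction with the largest called changes in each comparison and scale, with some added after their values were seen; 2 genes per direction of the other lists could be named.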

Additional observations from a re-analysis of the deposited data

Results flagged for a closer look

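The effect of siOCT4 on the ratio as deposited differed between 1% and 20% oxygen for 38 of 50 members, by limma's interaction term (adjusted p over all genes under 0.05), 27 above 0 and 11 below 0, beside 42.5 and 26.2% of all genes. The values that follow are the log2 siOCT4 effect at 1% oxygen minus that at 20% oxygen. They are signed, so a value above 0 does not mean that the effect was larger in size at 1% oxygen. Among the 27 members above 0 they were 5.69 in DDX58, 4.79 in DHX29, 4.58 in DDX3X, 4.37 in DDX46, 4.12 in DDX52, 4.06 in DDX21, 4.05 in DHX36, 3.81 in DHX40 and 3.80 in DDX18. The next were 3.77 in DHX9, 3.50 in DHX57, 3.49 in DDX50, 3.48 in DDX6, 3.47 in DDX20, 3.39 in DDX60, 3.33 in DHX15, 3.26 in DDX59 and 3.21 in DHX32. The lowest of these were 3.16 in DDX1, 2.99 in DDX10, 2.62 in DDX55, 2.51 in DHX33, 2.32 in DDX5, 2.11 in DDX47, 1.93 in DDX42, 1.81 in DDX17 and 1.70 in DDX25. The 11 members below 0 had -2.28 in DDX39A, -2.20 in DDX49, -2.11 in DHX16, -2.10 in DDX54, -2.03 in DHX30, -1.78 in DHX34, -1.66 in DDX41, -1.36 in DDX51, -1.31 in DHX37, -1.27 in DHX38 and -0.82 in DDX39B. GC content of the transcripts moved with these values, the lowest transcript GC content among the members below 0 being 51.5%, in DDX39B. After the GC correction 18 members were called above 0 and 7 below 0, beside 22.4 and 21.7% of all genes. Called in the same direction on both scales were 17 members above 0 and 4 below 0, which was not counted over all genes. DDX25 was called above 0 as deposited and below 0 after the correction.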

How the results depend on the processing

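Unless all genes are named, counts here are of members called, of 50, in the order of the 7 comparisons: siOCT4 against control at 1% and at 20% oxygen, 1% against 20% oxygen in siOCT4 and in control cells, the interaction, siOCT4 at 1% against control at 20% oxygen, and siOCT4 at 20% against control at 1% oxygen. As deposited they were 38, 39, 37, 36, 38, 17 and 3. They were 24, 10, 24, 20, 25, 28 and 11 after the GC correction, 26, 10, 20, 20, 28, 21 and 10 with GC content and length, and 27, 12, 24, 22, 24, 28 and 12 with the GC content of the longest transcript, an alternative added after seeing the data. The split by direction moved more than these totals. With the longest transcript it was 3 higher and 9 lower for siOCT4 at 20% oxygen (1112 and 1177 of all genes). In control cells it was 12 and 10 (3529 and 3519 of all genes). With length it was 18 and 8 for siOCT4 at 1% oxygen (2890 and 3415 of all genes). Quantile normalization gave 26, 17, 28, 30, 33, 0 and 17. Of all 15864 genes it called 59 higher and 94 lower where 0 members were called, and 2753 and 2707 in the last comparison. With the replicate block the member counts were 35, 38, 33, 36, 37, 11 and 0, and with the GC correction and replicate block 20, 1, 21, 13, 20, 23 and 8. Of all genes the block called 551 higher and 133 lower in the last comparison. With the GC correction and block, 245 of all genes were higher and 169 lower where 1 member was called. The labels do not pair the cultures, and deviations of same-numbered cultures correlated between -0.233 and 0.0225. A fit restricted to the compared groups gave 7 and 0 in the last 2 comparisons, where 769 and 521 of all genes were higher and 666 and 74 lower. Leaving out recurrent ratios, which left 37 members, gave 8 in the last, where 1581 of the 8087 genes left were higher and 700 lower. With each culture left out in turn the counts as deposited ran from 31 to 38, 29 to 40, 30 to 38, 33 to 37, 36 to 38, 3 to 15 and 0 to 4, and GC corrected from 16 to 24, 0 to 3, 11 to 23, 11 to 15, 15 to 23, 16 to 27 and 0 to 12. The spread of a lone culture was then taken from the other 3 groups. Without either siOCT4 culture at 20% oxygen hardly any of all genes was called GC corrected in siOCT4 against control at 20% oxygen. In the last comparison no gene was called as deposited. These low counts therefore say nothing particular about the members.

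Of 62 changes of single members followed through these settings, 4 that were called as deposited took the opposite sign with the GC correction. The changes of DDX25 and DDX47 were called on both scales, those of DDX60 and DHX34 as deposited only. Over all members, opposite calls on the scales numbered 2 with siOCT4 at 20% oxygen and 1 in the interaction. With low oxygen they numbered 3 in control cells and 2 in siOCT4 cells. Opposite calls were not counted over all genes. DDX25 at 1% against 20% oxygen in siOCT4 cells was -0.42 with the GC correction with or without the replicate block, -0.73 with length, -0.23 with the longest transcript and, as deposited and GC corrected, between -0.46 and 0.76 with a culture left out. DDX47 in that comparison was -0.43 with or without the block, -0.23 with length, -0.35 with the longest transcript, -0.18 after quantile normalization and between -0.51 and 0.78 with a culture left out. The DDX60 interaction was -0.11 with or without the block, -0.43 with length and between -1.44 and 4.70 with a culture left out. DHX34 with siOCT4 at 1% oxygen was 0.16 with or without the block, 0.18 with the longest transcript and between -0.70 and 0.36 with a culture left out. With siOCT4 at 1% oxygen DDX6 was -0.055 with GC content and length, and DDX51 0.30 with the longest transcript, with which the DDX17 interaction was -0.056. The causes were not tested.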
